A study of Bos taurus with 25 samples.

Results

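Vitamin B12 (cobalamin) is of use to a cell only after a chain of proteins has carried it in and turned it into a cofactor, and the genes of that chain were followed here in the liver and mammary gland of lactating dairy cows. The genes were MMUT (MUT in older annotation), MMAA, MMAB, MMACHC, MMADHC, LMBRD1, ABCD4, TCN2, CD320 and CUBN, taken by name for their known roles. Probes were found for 9 of the 10 genes, 21 probes in all of the 43653 probes and 27841 genes measured. No probe was found by name for ABCD4, which is not analysed here. The genes were measured by 1 to 4 probes each, and a gene was read from its brightest probe.

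The data came from multiparous Holstein cows that received a weekly intramuscular injection of 5 mL, with biopsies of both tissues taken 64 ± 3 d after calving. The injection held saline (Ctl), 320 mg of pteroylmonoglutamic acid, that is, folic acid (B9), 10 mg of cyanocobalamin (B12), or both vitamins (B9_B12). The liver arrays numbered 3 Ctl, 3 B9, 4 B12 and 2 B9_B12, and the mammary arrays 3 Ctl, 3 B9, 4 B12 and 3 B9_B12. Each array held the RNA of 1 biopsy of 1 cow, and 12 cows gave both tissues, so that the cow was the replicate.

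Transcobalamin, the product of TCN2, carries the vitamin in plasma and is taken up with its cargo through the receptor CD320, while cubilin (CUBN) takes up the vitamin bound to intrinsic factor in the gut. The vitamin leaves the lysosome through LMBRD1 and ABCD4, MMACHC strips it of its upper ligand (the cyano group of cyanocobalamin, for example), and MMADHC directs it to the cytosol or the mitochondrion. In the mitochondrion MMAB makes adenosylcobalamin and MMAA, a GTPase, guards its loading onto MMUT, the mutase that turns methylmalonyl-CoA into succinyl-CoA. Propionyl-CoA, from propionate and from the breakdown of valine, isoleucine and other compounds, is disposed of by this route, and succinyl-CoA is an intermediate of the citric acid cycle.

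The arrays were 1-colour bovine arrays, and 71.2 to 84.2% of the probes in the liver and 64.5 to 76.5% in the mammary gland were well above background. Of the 12 liver arrays, 3 were scanned on a second day (Ctl cow 43, B12 cow 37 and B9_B12 cow 32). Their ratio of median signal to background was 2.30 to 3.58, as compared to 5.33 to 10.5 for the 9 other liver arrays and 2.92 to 5.06 for the mammary arrays. All 6 hepatocyte markers (among them ALB and APOA1) were higher in the liver and all 5 mammary secretory markers with a probe (among them CSN1S1 and LALBA) were higher in the mammary gland. The mean log2 level of the hepatocyte markers was 17.0 to 17.5 on the liver arrays and 7.73 to 10.0 on the mammary arrays, and that of the secretory markers was 17.7 to 18.0 on the mammary and 7.96 to 10.3 on the liver arrays.

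The first comparison asked where in the cow this machinery was most abundant, and is given on 1 scale normalized over all 25 arrays. Of the 9 genes, 5 (MMUT, MMACHC, MMAA, TCN2 and MMAB) were higher in the liver at an adjusted p ≤ 0.05 and at least a 2-fold difference, as compared to 8.26% of all genes. None (0 of 9) was higher in the mammary gland, as compared to 11.1% of all genes. The median log2 difference (liver minus mammary gland) over the 9 genes was 1.30, and it was -0.034 over all genes, whose 5th and 95th percentiles were -1.63 and 1.68. For 6 of the 9 genes, LMBRD1 included, every liver array lay above every mammary array on this scale, which held for 10.9% of all genes. By the adjusted p alone, 6 of 9 were higher in the liver (24.0% of all genes) and 1 of 9, CD320, in the mammary gland (37.8%). In such bulk samples, fewer cells of a type and less RNA per cell cannot be told apart.

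**Figure D1:**
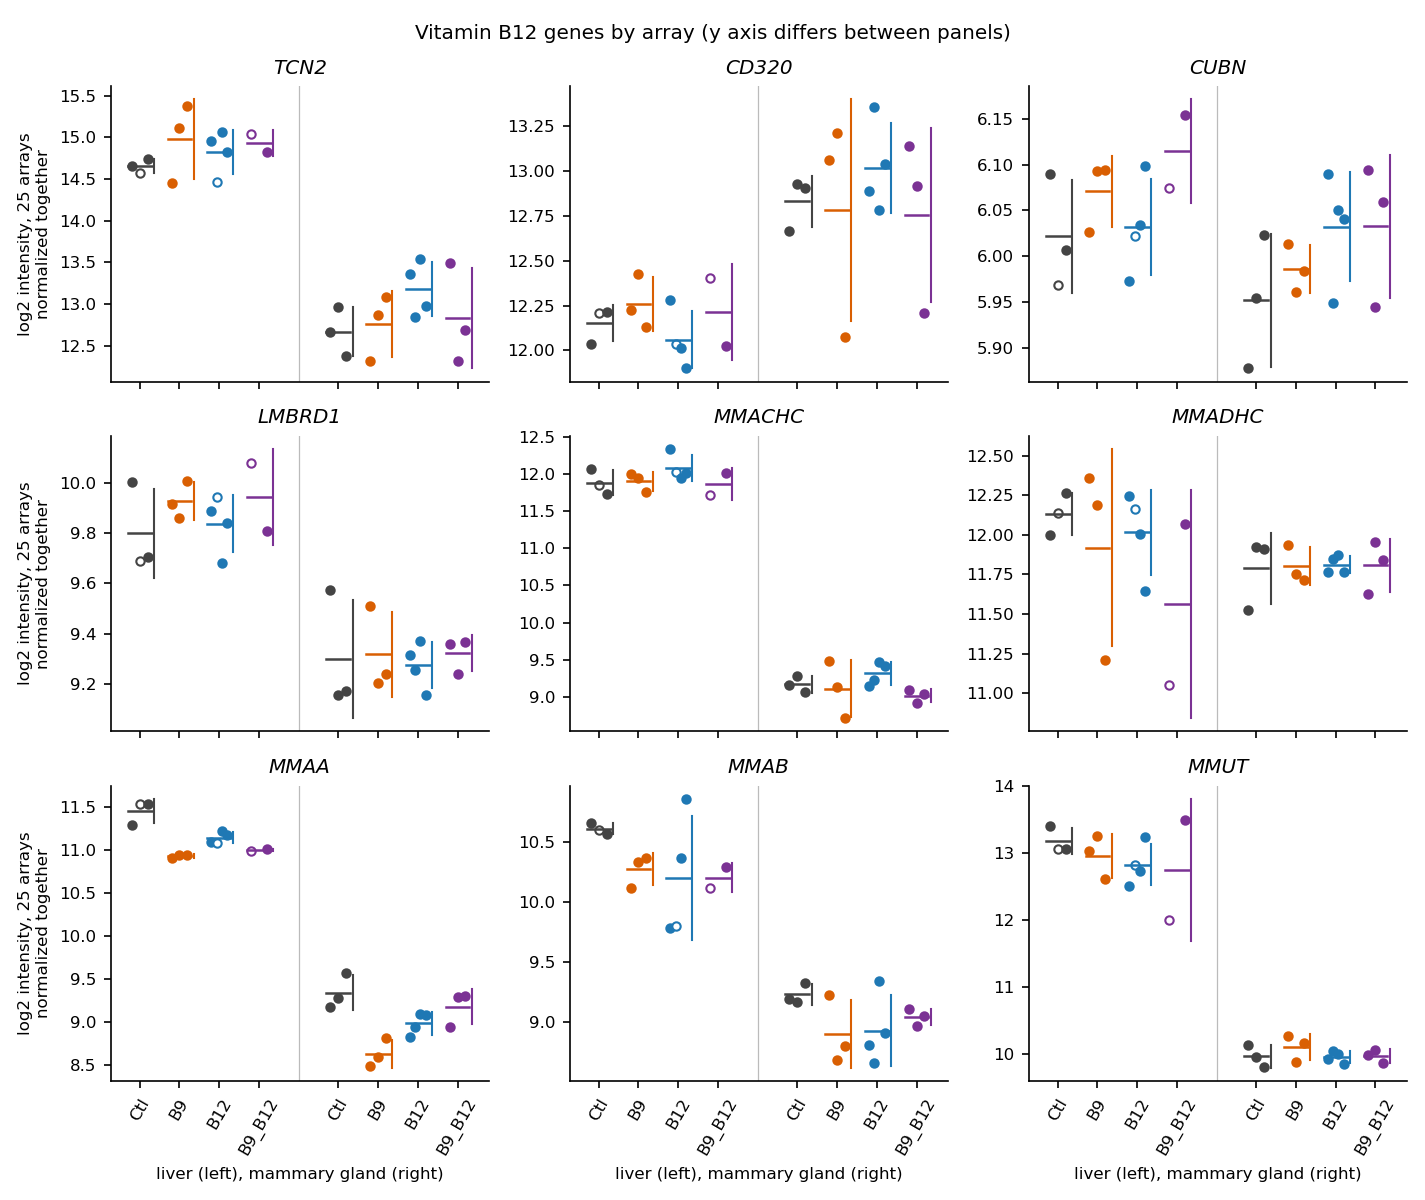
Log2 level (vertical axis, normalized over all 25 arrays) of the genes by tissue and treatment, with a point for each array, a bar at the group mean, a vertical line for the SD and open points for the arrays of the second scan day. MMUT, MMACHC, MMAA, MMAB, TCN2 and LMBRD1 show no overlap between liver and mammary arrays, whereas MMADHC and CD320 overlap.

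Among the carriers and receptors, TCN2 stood higher in the liver. Its log2 level lay between 14.45 and 15.37 on the liver arrays (median 14.82) and between 12.31 and 13.54 on the mammary arrays (median 12.87). The difference was 1.99 on the log2 scale (SE 0.14), or 3.97-fold (adjusted p = 1.32e-10 by limma), and it was seen in 12 of 12 cows, from 1.53 to 2.73. The 3 other TCN2 probes gave differences of 1.56 to 2.23.

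CD320, the receptor that takes up transcobalamin, lay the other way on this scale. Its log2 level lay between 11.91 and 12.42 on the liver arrays (median 12.17) and between 12.08 and 13.36 on the mammary arrays (median 12.92). The lowest mammary arrays, 12.08 in B9 cow 57 and 12.21 in B9_B12 cow 38, lay within the liver range. The difference was -0.68 (SE 0.12), or 1.60-fold (adjusted p = 6.64e-05 by limma), short of the 2-fold threshold, and liver was the higher tissue in 1 of 12 cows. This difference rested on the scaling: with each array set to its 75th percentile, which moved the median of all probes to -0.80, it was -0.046 (limma adjusted p = 0.731), and it was -0.21 (limma adjusted p = 0.190) for the processed signal scaled that way, whose median of all probes was -0.48. Relative to those medians CD320 was 0.76 and 0.28 higher in the liver, so no direction is given for it.

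CUBN, whose product acts in the gut and kidney, could not be compared. Its brightest probe was well above background on 3 of 12 liver arrays and 0 of 13 mammary arrays, and its other probe on 1 of 12 liver arrays and 0 of 13 mammary arrays.

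LMBRD1, the lysosomal membrane protein, differed by less than the fold threshold but in the same way in every cow. Its level lay between 9.68 and 10.08 on the liver arrays (median 9.87) and between 9.16 and 9.57 on the mammary arrays (median 9.26), without overlap. The difference was 0.57 (SE 0.06), or 1.49-fold (limma adjusted p = 3.01e-08), and was higher in the liver in 12 of 12 cows, from 0.31 to 0.84. With arrays scaled to their 75th percentile it was 0.70 for the median signal and 0.70 for the processed signal, or 1.498 and 1.18 relative to the median of all probes, past 2-fold.

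MMACHC, which processes every incoming form of the vitamin, was among the genes that differed most. Its level lay between 11.71 and 12.33 on the liver arrays (median 11.97) and between 8.72 and 9.48 on the mammary arrays (median 9.15). The difference was 2.78 (SE 0.08), or 6.86-fold (limma adjusted p = 2.16e-17), and it spanned 2.47 to 3.19 over 12 of 12 cows. The second MMACHC probe gave 2.71.

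MMADHC, its partner in the cytosol, did not pass the test. The liver arrays ran from 11.05 to 12.36 (median 12.10) and the mammary arrays from 11.53 to 11.96 (median 11.84). The difference was 0.11 (SE 0.12, limma adjusted p = 0.490), and liver was higher in 9 of 12 cows, from -0.90 to 0.48. The liver values of B9_B12 cow 32 (11.05), B9 cow 57 (11.21) and B12 cow 52 (11.64) lay below the range of the 9 other liver arrays, 12.00 to 12.36. All 3 MMADHC probes were lowest in cow 32, an array of the second scan day, and next lowest in cow 57, an array of the first. The difference was 0.22 (limma adjusted p = 0.155) without the arrays of the second scan day, and with each array set to its 75th percentile it was 0.57 (limma adjusted p = 4.08e-05) and for the processed signal 0.44 (limma adjusted p = 0.00106). Relative to the medians of all probes those were 1.38 and 0.93, so that whether MMADHC differed between the tissues rests on the scaling. A second probe gave 0.40 (limma adjusted p = 0.00598) and the last one 0.035 (limma adjusted p = 0.825).

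The mitochondrial members were all higher in the liver. MMUT, the mutase itself, lay between 12.00 and 13.50 on the liver arrays (median 13.05) and between 9.80 and 10.27 on the mammary arrays (median 9.98). Its difference was 2.93 (SE 0.13), or 7.64-fold (limma adjusted p = 6.11e-14), in 12 of 12 cows, from 1.94 to 3.64. The lowest liver value, 12.00, was that of B9_B12 cow 32, which was also lowest for 3 of the 4 MMUT probes. The other 3 probes gave differences of 2.85 to 2.89, and without the arrays of the second scan day the difference was 3.14 (limma adjusted p = 4.23e-14).

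MMAA, the GTPase, lay between 10.90 and 11.53 on the liver arrays (median 11.09) and between 8.49 and 9.56 on the mammary arrays (median 9.08). Its difference was 2.10 (SE 0.06), or 4.28-fold (limma adjusted p = 1.32e-17), in 12 of 12 cows, from 1.70 to 2.41. The adenosyltransferase gene MMAB, with 1 probe, lay between 9.78 and 10.86 on the liver arrays (median 10.35) and between 8.65 and 9.34 on the mammary arrays (median 9.05). Its difference was 1.30 (SE 0.11), or 2.46-fold (limma adjusted p = 1.70e-09), in 12 of 12 cows, from 0.90 to 1.95.

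**Figure D2:**
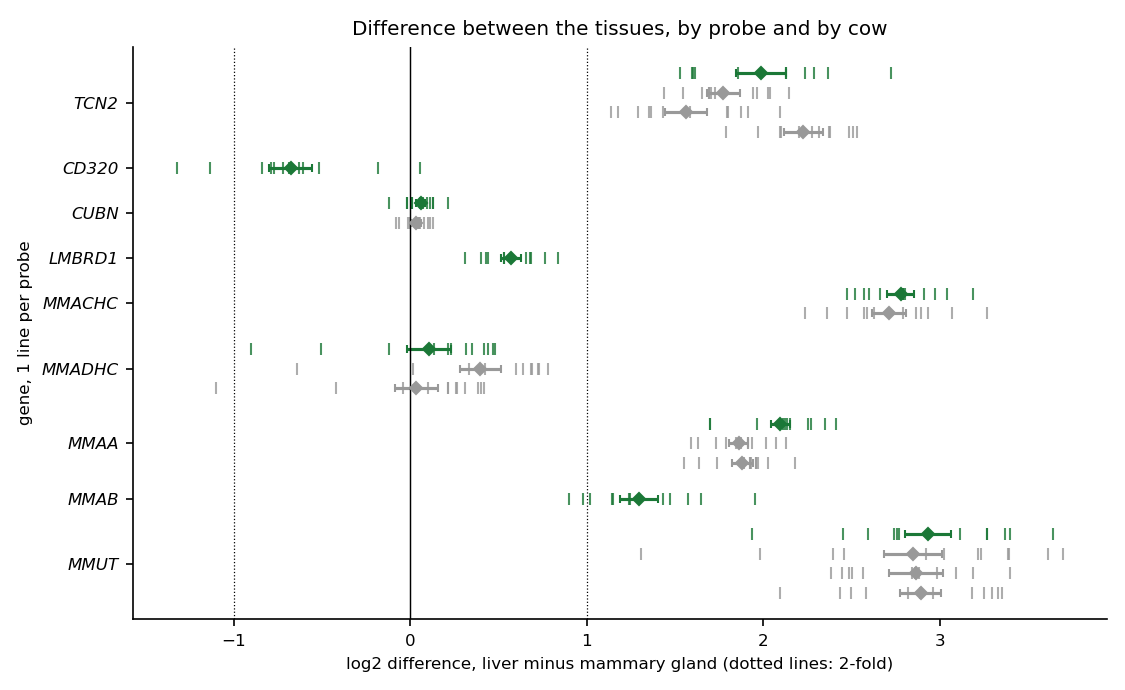
Log2 difference (liver minus mammary gland, horizontal axis) of each probe of the genes, with a diamond and SE bar from limma, green for the brightest probe of a gene, and ticks for the 12 cows with both tissues. The probes of MMUT, MMACHC, MMAA and TCN2 all lie above 1.5, those of MMADHC at 0.035 to 0.40 and CD320 below 0 on this scale. Relative to all probes, with arrays scaled to their 75th percentile, CD320 is not below 0 and the brightest MMADHC probe is further above it.

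The enzymes before and after the mutase were described next, as a list. Of the 8 genes listed for the route from propionate and branched-chain amino acids to succinyl-CoA, and for succinyl-CoA ligase after it, 7 had a probe. Of these, 5 were higher in the liver and 1 was higher in the mammary gland. The largest differences were those of the 2 subunits of propionyl-CoA carboxylase, PCCA (3.18, 9.07-fold, limma adjusted p = 1.81e-17) and PCCB (2.54, 5.82-fold, limma adjusted p = 4.97e-15). ALDH6A1, a dehydrogenase of valine catabolism that yields propionyl-CoA, differed by 1.98 (3.93-fold, limma adjusted p = 8.61e-18). SUCLA2, the ATP-forming subunit of succinyl-CoA ligase, was the gene higher in the mammary gland, at -1.07 (2.10-fold, limma adjusted p = 7.89e-12). That rests on 1 of its 4 probes, as the other 3 gave -0.65 to -0.26, short of 2-fold. The differences of this list hold on the scale normalized over all arrays, and their values under the other scalings are not given here.

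Methionine synthase (MTR), the other enzyme that uses vitamin B12 as a cofactor, and the reductase that reactivates it (MTRR) were 0 of 2 past the threshold. Of 5 uptake partners 3 had a probe, and 1 was higher in the liver, AMN, the membrane partner of cubilin (1.47, 2.77-fold, limma adjusted p = 9.06e-06), while its other probe differed by 0.24, short of 2-fold. The 2 measured gut and kidney markers, AMN among them, had a mean log2 level of 6.15 to 6.32 on the mammary arrays. That is close to the 5.88 to 6.09 of the dim CUBN. Of 3 regulators of MMACHC 2 had a probe, and 0 were past the threshold.

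Markers of other cell types also differed between the tissues. The 4 macrophage markers with a probe were all higher in the liver, at a mean log2 level of 12.1 to 12.5 on the liver arrays and 9.48 to 10.4 on the mammary arrays. Of the stromal markers 3 of 4, of the adipocyte markers 1 of 3 and of the plasma cell markers 2 of 2 were higher in the mammary gland, while 0 of 4 endothelial markers and 0 of 3 blood markers passed. The bile duct list held 1 measured marker, KRT7, which was higher in the mammary gland, and of the 2 gut and kidney markers 1, AMN, was higher in the liver. Their part in the tissue differences was not tested.

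The second comparison asked whether supplying the vitamins changed the genes that handle vitamin B12, with each treatment set against the Ctl cows of the same tissue on the deposited scale, normalized within a tissue. None of the 9 genes (0 of 9) was past an adjusted p ≤ 0.05 with at least a 2-fold difference in any comparison by limma, and 0 of 9 were so by Cyber-T. The Cyber-T calls over all probes in the liver are given at the end. Over all genes the limma share was 0.00359% for B12 in the liver and 0.0% for the other comparisons of B9, B12 and B9_B12 with Ctl. The 3 comparisons of a tissue share their Ctl arrays. At an unadjusted limma p below 0.05 there was 1 of 9 genes, MMAA each time, in the liver with B9 (3.14% of all genes), B12 (1.86%) and B9_B12 (6.09%), and in the mammary gland with B9 (2.57%) and B12 (2.37%). With B9_B12 in the mammary gland there were 0 of 9 (1.98%). The median log2 difference over the 9 genes ran from -0.11 to 0.023 over these 6 comparisons, and that over all genes from -0.0047 to 0.034.

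**Figure D3:**
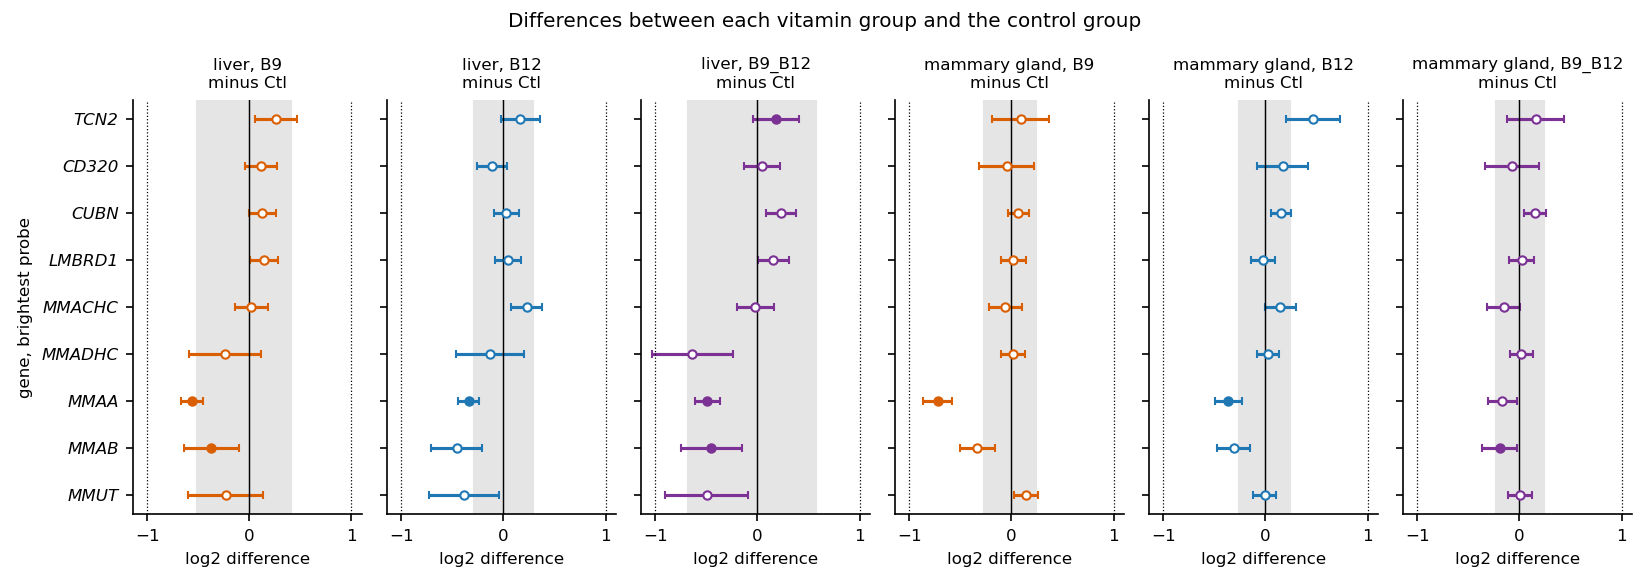
Log2 difference from Ctl (horizontal axis) with SE for each gene, by tissue and treatment, on the deposited scale, with filled points where the treated and Ctl arrays do not overlap and a grey band from the 5th to the 95th percentile of all genes. MMAA and MMAB lie below 0 in all 6 comparisons and TCN2 and the dim CUBN above 0, while the other 5 genes lie on both sides of 0.

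MMAA, which guards the loading of the cofactor onto the mutase, had every B9 array below every Ctl array in both tissues, without passing the test after adjustment. In the liver its log2 value was 12.09, 12.36 and 12.36 on the Ctl arrays and 11.68, 11.71 and 11.73 on the B9 arrays. The B9 arrays lay close together and all below the lowest Ctl array. The difference was -0.56 (SE 0.11, unadjusted limma p = 0.000313, limma adjusted p = 0.891), and the exact two-sided permutation p was 0.1, the smallest that 3 arrays against 3 allow. Of the 27841 genes, 2 had a lower unadjusted p.

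In the mammary gland MMAA was measured at 8.45, 8.54 and 8.83 on the Ctl arrays and at 7.74, 7.84 and 8.07 on the B9 arrays. Again every B9 array lay below every Ctl array. The difference was -0.72 (SE 0.14, unadjusted limma p = 0.000241, limma adjusted p = 1), with an exact permutation p of 0.1. No gene (0 of 27841) had a lower unadjusted p in that comparison, which all the same did not pass after adjustment. The cows with B9 and the Ctl cows were the same 3 and 3 animals in both tissues, so the tissues are not independent samples of cows.

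With B12 alone every MMAA value was again below every Ctl value. The liver arrays read 11.87, 11.88, 11.96 and 12.01, all under the lowest Ctl array at 12.09. The difference was -0.34 (SE 0.10, unadjusted limma p = 0.0068, limma adjusted p = 1), with an exact permutation p of 0.0286, the smallest that 4 arrays against 3 allow. The mammary arrays read 8.08, 8.20, 8.34 and 8.36, all under the lowest Ctl array at 8.45.

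That mammary difference was -0.36 (SE 0.13, unadjusted limma p = 0.0170, limma adjusted p = 1) with an exact permutation p of 0.0286, and 177 genes had a lower unadjusted p. It rested in part on 1 Ctl array: without Ctl cow 51 it was -0.25, and its unadjusted limma p was no longer below 0.05.

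With both vitamins the MMAA values overlapped with Ctl in the mammary gland and not in the liver. The liver arrays read 11.77 and 11.79, below every Ctl array, for a difference of -0.49 (SE 0.12, unadjusted limma p = 0.00197, limma adjusted p = 0.664) and an exact permutation p of 0.1, the smallest possible. The mammary arrays read 8.20, 8.55 and 8.57 and overlapped with Ctl, for a difference of -0.17 (SE 0.14, limma adjusted p = 1) and an exact permutation p of 0.6. The difference between these effects, tested on the scale shared by both tissues, was -0.29 (SE 0.17, limma adjusted p = 0.835), so that the tissues are not shown to differ. For B9 the same contrast was 0.19 (SE 0.16, limma adjusted p = 1.00) and for B12 0.049 (SE 0.15, limma adjusted p = 1). None of the 9 genes (0 of 9) had an unadjusted p below 0.05 in these contrasts, where 2.22% of all genes did for B9, 1.64% for B12 and 4.16% for B9_B12.

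With both vitamins the MMAA difference from Ctl was nearer to 0 than the sum of those with B9 and with B12. In the 2 by 2 layout the interaction of B9 and B12 for MMAA was 0.92 in the mammary gland (SE 0.19, limma adjusted p = 0.999) and 0.41 in the liver (SE 0.16, limma adjusted p = 1.00). Neither passed after adjustment, and 2 and 476 of the 27841 genes had a lower unadjusted p in the mammary gland and the liver. The interaction takes in the same Ctl arrays as the B9 and B12 differences, so it is not independent of them. Averaged over the 3 MMAA probes, the mammary interaction was 0.57 and the mammary B9 difference -0.44, both over 1.5 times smaller than on the brightest probe, and both with an unadjusted p below 0.05. MMAA was the 1 of 9 genes with an unadjusted interaction p below 0.05 in either tissue, where 3.26% of all genes in the mammary gland and 3.58% in the liver had one. Cows with B12, with or without B9, set against those without it gave an average MMAA effect of -0.13 in the liver (limma adjusted p = 1.00) and 0.096 in the mammary gland (limma adjusted p = 1). In the mammary gland the 3 MMAA probes ran from -0.035 to 0.096 in that comparison. In that comparison 0 of 9 genes had an unadjusted p below 0.05 in either tissue, as compared to 2.96% (liver) and 1.66% (mammary gland) of all genes.

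The array carried 3 probes annotated to MMAA, each with its own difference. With B9 in the liver all 3 probes were below Ctl on average, by -0.56 to -0.38, and all 3 had no overlap with Ctl. With B12 in the liver they were at -0.34 to -0.22, 2 of 3 without overlap, and with B9_B12 at -0.49 to -0.34, 3 of 3 without overlap. In the mammary gland B9 gave -0.72 to -0.25, with 2 of 3 probes free of overlap, B12 gave -0.36 to -0.13 with 1 of 3, and B9_B12 gave -0.17 to -0.073 with 0 of 3.

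The MMAA values were also computed by scan day, slide and scaling. Without the 3 liver arrays of the second scan day, the MMAA difference was -0.52 with B9, -0.27 with B12 and -0.44 with B9_B12, and the unadjusted limma p was then below 0.05 with B9 and not with B12. The B9_B12 value then rests on 1 array, cow 38, and no test is drawn from it. With the slide as a fixed block it was -0.43, -0.38 and -0.44 in the same order, values that rest on few arrays: B9 cows 39 and 41 and B12 cows 36 and 52 were each the only liver array of their slide, so that B9 is carried by cow 57 alone. The unadjusted limma p was then below 0.05 with B9_B12 and not with B9 or B12. In the mammary gland, where all arrays were scanned on 1 day, the slide block gave -0.81 with B9 and -0.45 with B12, both with an unadjusted p below 0.05.

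The mean log2 level of each of the 10 marker lists was set beside the treatments. In the liver no list stood apart from Ctl with B9 or B12, and the hepatocyte markers spanned 17.0 to 17.5 over the treated arrays and 17.2 to 17.3 on the Ctl arrays. With B9_B12 in the liver (2 arrays against 3), where 13.1% of single genes did so on the deposited scale, 4 lists lay above every Ctl array. These were the endothelial markers (9.23 to 9.43, Ctl 8.95 to 9.15), the stromal markers (10.61 to 10.65, Ctl 9.95 to 10.57), the plasma cell markers (8.86 to 9.07, Ctl 7.84 to 8.60) and the mammary secretory markers (8.55 to 8.81, Ctl 8.39 to 8.39). On the mammary arrays the secretory markers lay below Ctl with B12 (17.74 to 17.92, Ctl 17.93 to 17.97) and the macrophage markers with B9_B12 (9.67 to 9.82, Ctl 9.89 to 10.12). The gut and kidney markers, of low level, lay below the Ctl arrays (6.26 to 6.32) with B9 (6.18 to 6.25), B12 (6.17 to 6.24) and B9_B12 (6.15 to 6.24). Of single genes in the mammary gland, 3.31% lay below every Ctl array with B9, 1.62% with B12 and 3.46% with B9_B12. The part of the marker levels in the treatment differences was not tested.

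Scaling each array to its 75th percentile, which moved the median of all probes to 0.11 with B9 and 0.27 with B9_B12 in the liver, gave MMAA differences there of -0.42 with B9, -0.30 with B12 and -0.33 with B9_B12. The processed signal scaled that way gave -0.41, -0.27 and -0.30 in the same order, the last of them over 1.5 times smaller than the -0.49 given above. Across both scalings the unadjusted limma p in the liver was below 0.05 only with B9 at the 75th percentile of the median signal, and the liver interaction was not below 0.05 in either.

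Each of these differences was also set against the median of all probes under the same scaling. With the first scaling MMAA in the liver was then at -0.54 with B9, -0.22 with B12 and -0.60 with B9_B12, and with the processed signal at -0.44, -0.24 and -0.42. The mammary values were -0.44 with B9 and -0.20 with B12 in the first scaling, whose medians were -0.21 and -0.12, and -0.81 and -0.50 for the processed signal. The interaction relative to all probes was 0.16 and 0.29 in the liver and 0.65 and 1.11 in the mammary gland under the first scaling and the processed signal. The direction was the same throughout, while the first scaling made both mammary differences, the liver difference with B12 and the liver interaction over 1.5 times smaller.

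MMAB, the adenosyltransferase, was the other gene whose arrays stood apart from Ctl in more than 1 comparison, without passing a test. Its log2 value in the liver was 11.32, 11.35 and 11.42 on the Ctl arrays, 10.83, 11.06 and 11.09 on the B9 arrays, and 10.81 and 11.01 on the B9_B12 arrays. The differences were -0.37 with B9 (limma adjusted p = 0.891) and -0.45 with B9_B12 (limma adjusted p = 0.664). The B12 arrays of the liver, at 10.45, 10.46, 11.09 and 11.63, lay on both sides of Ctl, 3 of 4 below every Ctl array, for a difference of -0.45 (limma adjusted p = 1). In the mammary gland the B9_B12 arrays, at 8.23, 8.31 and 8.37, lay below the Ctl arrays at 8.43, 8.46 and 8.59, a difference of -0.19 (limma adjusted p = 1). Relative to the median of all probes that difference was -0.011 after scaling to the 75th percentile, which moved the median to -0.15, and -0.23 for the processed signal. The mammary differences were larger, with overlap, for B9 at -0.33 (SE 0.17, limma adjusted p = 1), with 2 of 3 arrays below every Ctl array, and for B12 at -0.31 (SE 0.16, limma adjusted p = 1.00), with 3 of 4. Thus the mean of MMAB, like that of MMAA, was below Ctl in all 6 comparisons, which share their Ctl arrays within a tissue.

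TCN2 stood apart in 1 comparison. With B9_B12 in the liver its 2 arrays, at 15.76 and 15.88, lay above the Ctl arrays at 15.53, 15.66 and 15.73, a difference of 0.18 (limma adjusted p = 0.781). It was 0.53 after scaling to the 75th percentile and 0.54 for the processed signal, or 0.26 and 0.41 relative to the median of all probes. The other TCN2 probes gave -0.16 to 0.057 there. On its brightest probe the mean of TCN2 was above Ctl in all 6 comparisons, by 0.09 to 0.47, with overlapping arrays in the other 5.

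Counts of genes whose arrays did not overlap with Ctl were read against all genes. In the liver 2 of 9 were below every Ctl array with B9 (4.57% of all genes), 1 of 9 with B12 (2.59%) and 2 of 9 with B9_B12 (9.5%), where 1 of 9 was above (13.1%). In the mammary gland there was 1 of 9 below with B9 (3.31%), with B12 (1.62%) and with B9_B12 (3.46%). Among the genes above or below were MMAA, MMAB and TCN2, and no other.

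The 7 genes other than MMAA and the dim CUBN ranged on both sides of Ctl. Their log2 differences in the liver ran from -0.37 to 0.26 with B9, from -0.45 to 0.23 with B12 and from -0.64 to 0.18 with B9_B12. In the mammary gland they ran from -0.33 to 0.14 with B9, from -0.31 to 0.47 with B12 and from -0.19 to 0.16 with B9_B12. For none of the 7 genes was the unadjusted limma p below 0.05 in these comparisons. The related genes of propionate use, uptake, methionine synthesis and MMACHC regulation gave 0 calls in the 8 treatment comparisons by limma. At an unadjusted p below 0.05 there were 1 of 14 in the liver with B9 (3.14% of all genes), 1 with B12 (1.86%), 2 with B9_B12 (6.09%) and 1 with any B12 (2.96%), and 1 with B9_B12 in the mammary gland (1.98%). In a list this short 1 or 2 genes are no result about the list. They are named here after their values were seen. ALDH6A1, which yields propionyl-CoA, differed in the liver by -0.35 with B9 (SE 0.15, limma adjusted p = 0.891), -0.57 with B12 (SE 0.14, limma adjusted p = 1) and -0.45 with B9_B12 (SE 0.17, limma adjusted p = 0.664), and by -0.34 with any B12. The others were ZNF143, a transcription factor, at -0.53 in the liver with B9_B12 (limma adjusted p = 0.664) and AMN, of low level in the mammary gland, at -0.25 there with B9_B12 (limma adjusted p = 1).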

How the data were processed

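RNA of liver and mammary biopsies was hybridised to 1-colour bovine 4x44K arrays, 25 in all, on 8 slides. The authors deposited scanner files with intensity per spot (Agilent Feature Extraction, 10.7.3.1 per the file headers and 9.1 per the labels) and a table of log2 values, which they background-corrected (normexp) and normalized between arrays within each tissue. Quantile-normalized scanner values after normexp (offset 16) came within a median of 0.00186 (liver) or 0.000959 (mammary) of the deposited log2 values. Control spots and outlier flags were left out and spots of a probe averaged, which left 43653 probes. Probes were named through their accession in RefSeq's gene table (ARS-UCD2.0), which gave 53.9% of the probes a current symbol.

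Treatments were compared on the deposited log2 values with limma 3.58.1 in R 4.3.3, with all arrays of a tissue in the fit. Tissues were compared on median intensity with normexp (offset 50) and quantile normalization over the 25 arrays, as the mean of the 4 liver groups minus that of the 4 mammary groups. P-values were adjusted over all probes (Benjamini-Hochberg), with an adjusted p of at most 0.05 and at least 2-fold as threshold. The methods name Cyber-T, with settings not given in the sources used here. It was run as an alternative with a window of 101 and a confidence of 10 chosen here, beside other background corrections, scalings, a filter on dim probes, slide or scan day as a block, array weights and each array left out. The scan day alternatives and the offset of 16 were added after seeing the data. No count of reads exists, and the number of arrays limits the precision. No probe was saturated. The limma steps were tested on simulated data.

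The genes, the lists of related genes and markers and the tests were chosen with earlier results of these data known. All 10 genes were to be named by their brightest probe, with single arrays given in treatment comparisons where the unadjusted p was below 0.05 or the groups did not overlap, and related genes by counts, with up to 3 named in each direction where past the threshold. The cow is the replicate and the same cow gave both tissues. Deviations from group means correlated between the tissues of a cow from -0.246 to 0.259 (median 0.0375).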

Additional observations from a re-analysis of the deposited data

How the results depend on the processing

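All values here are log2 differences or counts of the 9 genes. The count of genes higher in the liver was 5 under every alternative with the fold threshold and each array left out, and 6 without a fold threshold. These counts do not set the differences against the median of all probes. Relative to that median the 5 genes were at 1.32 (MMAB) to 2.96 (MMUT), with TCN2 at 2.01. With each array set to its 75th percentile they were at 2.23 to 4.20, with TCN2 at 3.48. LMBRD1, at 1.498, and MMADHC, at 1.38, were then also past 2-fold. The count higher in the mammary gland was 0, and 1 (CD320) without a fold threshold. The counts for the treatments, interactions and effects between tissues stayed at 0 under every alternative run.

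With cow as a replicate block the tissue difference of MMUT was 2.93 (random) and 2.94 (fixed), and the block changed no call. Scaling to the 75th percentile turned CUBN, dim in both tissues, to -0.98. The mean of all probes turned TCN2 with B9_B12 in the liver to -0.0034. Leaving out 1 array in turn moved MMADHC between tissues from -0.022 (without liver B9_B12 cow 38) to 0.232. The TCN2 mean takes in its other probes, which gave -0.16 to 0.057 there. Without cow 38 the liver B9_B12 group was cow 32 alone, the lowest liver array for MMADHC at 11.05. CUBN was at -0.17 relative to the median of all probes under that scaling, and the cause was not tested for it.

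In the treatment comparisons where its unadjusted p was below 0.05, MMAA kept its direction in every alternative, but not that p. In the liver that p was 0.0487 with B9, 0.120 with B12 and 0.151 with B9_B12 after scaling to the 75th percentile, and 0.0741, 0.182 and 0.223 for the processed signal, with 0.191 and 0.228 for the interaction. With the slide as a fixed block it was 0.0991, 0.0583 and 0.0381, where most B9 arrays were alone on their slide. By Cyber-T its unadjusted p in the liver was 0.0328 with B9, 0.0737 with B12 and 0.0587 with B9_B12, and in the mammary gland 0.00374 and 0.0533 with B9 and B12. The lowest adjusted p of MMAA against Ctl was 0.106, with B9_B12 in the liver without cow 38, where 1 array is left in that group and is assumed to vary like the other groups. Over all 43653 probes Cyber-T called 5, 48 and 26 in the liver with B9, B12 and B9_B12, and limma 0, 1 and 0.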
